A study of Caenorhabditis elegans with 4 samples.

Results

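The 3130 BLMP-1 peaks on the X chromosome were taken from the series list of 17858 peaks as those whose sequence name was X, which made up 17.5% of that list. The corresponding X peaks numbered 1983 of 11261 in ChIP replicate 1 and 571 of 3009 in ChIP replicate 2, or 17.6% and 19.0% of those lists. All coordinates are on WormBase WS220.

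BLMP-1 was precipitated through a GFP tag from hermaphrodite embryos of C. elegans strain OP109, grown at 20 °C. The strain carried the unc-119 (ed3) allele on III and the transgene wgIs109, which holds blmp-1::TY1::EGFP::FLAG together with an unc-119 (+) copy that rescues the mutation. The transgene was introduced by biolistic transformation and the strain was not outcrossed, and its insertion site and copy number are not stated in the labels. Both ChIP samples and both input samples (n = 2 each) had this strain and stage in common. The 3 peak lists analysed were those of ChIP replicate 1, of ChIP replicate 2 and of the series, and no list of the inputs was analysed here, so a listed peak is not shown to be a binding site. The replicate lists stood apart in length, and the strongest and widest X region of the series list was present in replicate 1 and had no peak in replicate 2. Without that region series peaks covered 3.54% of X, and with it 3.61%.

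The worm protein BLMP-1 has zinc fingers that bind DNA and is related to mammalian Blimp-1 (PRDM1), which is best known as a repressor that directs cell fate choices. In C. elegans it is known for its part in the timing of larval development and in the epidermis that makes the cuticle. The X chromosome of the worm is present as a pair in hermaphrodites, and in their embryos a dosage compensation complex binds both copies and lowers their transcription. No expression was measured here. The genes beside the peaks are not named, since no annotation of WS220 was used here.

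For its length, X carried fewer BLMP-1 peaks in the series list than chromosomes II, III, IV and V, and its peaks were wider. It held 177 peaks per Mb, against 181 on V, 192 on II, 196 on IV and 207 on III. The ratio of X to II to V together was 0.916 (exact 95% interval 0.880 to 0.952, two-sided exact binomial p 8.56e-06, Benjamini-Hochberg adjusted over 6 tests 5.13e-05). Nearby peaks are not independent and counts were made on 1 list, so this p is too small. Set against the spread between chromosomes, X was lowest of 5, and the two-sided exact permutation p over 5 chromosomes was 0.4, where 0.2 is the smallest such a test can give. With chromosome I included, the density call ended: against all 5 autosomes together the ratio was 0.990 (exact binomial p 0.610) and X lay within their range of 114 to 207 peaks per Mb.

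The lower density was seen in replicate 1 and not in replicate 2. Replicate 1 held 112 peaks per Mb on X, below the 113 to 150 of II to V. Replicate 2 held 32.2 on X, which lay within the 28.3 to 40.5 of II to V, and its ratio of 0.971 did not pass the threshold of 0.05 (exact binomial p 0.546). Among the stronger 50% of the series list by score, the ratio was 0.859 (exact binomial p 8.26e-08). The score of a peak, the authors' own value, was read as a q-value and is smaller for stronger peaks.

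Bases covered by peaks did not follow the count of peaks. Series peaks covered 640186 bp of X, or 3.61% of its listed length, within the range of 3.22% on V to 3.66% on IV (exact permutation p 0.8 over 5 chromosomes). Replicate 1 peaks covered 2.40% of X and replicate 2 peaks 1.22%, against 2.04% to 2.61% and 0.946% to 1.28% on II to V. X was inside the range of the other chromosomes in each of the 3 lists.

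Width set X apart in all 3 lists. The median X peak was 157 bp wide in the series list, against 139 to 147 bp on II to V. It was 172 bp against 146 to 161 bp in replicate 1, and 334 bp against 267 to 310 bp in replicate 2. X therefore ranked first of 5 in each list, and the exact permutation p for the series list was 0.2, the smallest that 5 chromosomes can give. Both quartiles were higher on X as well, at 70 and 253 bp in the series list, against lower quartiles of 56 to 68 bp and upper quartiles of 207.5 to 229 bp on II to V. At the narrow end X did not stand out, as 19.8% of its series peaks were under 50 bp, within the 19.6% to 22.9% of II to V.

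**Figure D1:**
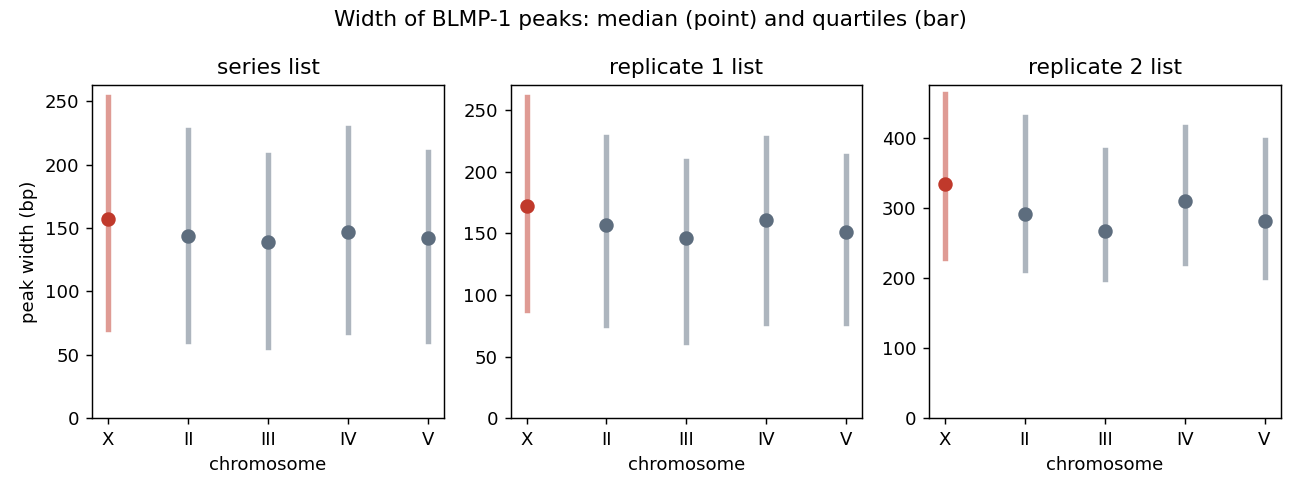
Width of BLMP-1 peaks in bp for X and chromosomes II to V, with 1 panel for each peak list; points are medians and bars run from the lower to the upper quartile. The X median (157, 172 and 334 bp) lies above those of the other chromosomes in each panel, and the quartile bars overlap widely.

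Stronger peaks are wider in these lists, so widths were also set side by side within 4 strength classes of equal size, formed over X and II to V together, with class 1 the strongest. In class 1 of the series list, 757 X peaks had a median width of 368 bp, against 292 to 330 bp on II to V. In replicate 1 the values were 359 bp against 284 to 326 bp, and in replicate 2 they were 512.5 bp against 417 to 494 bp. X was also widest in class 2 of each list, at 173, 185 and 361 bp. In class 3 of the series list X, at 110 bp, lay below the 113 bp of IV, and in replicate 2 X lay within the range of II to V in classes 3 and 4. These classes are descriptions with no test.

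In 1-Mb bins X was the most even of the 5 chromosomes in the series list and in replicate 1. Its 17 full 1-Mb bins held 136 to 204 series peaks with a median of 176, a coefficient of variation of 8.98%, where II to V had 12.6% to 14.3%. In replicate 1 the bins held 79 to 137 peaks and varied by 12.5%, against 13.8% to 20.7%. In replicate 2, with 21 to 52 peaks in a bin, X varied by 27.1%, inside the range of 22.1% to 41.3%. In 100-kb windows III was more even than X, at 29.3% against 32.4% in the series list and 30.9% against 35.2% in replicate 1.

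**Figure D2:**
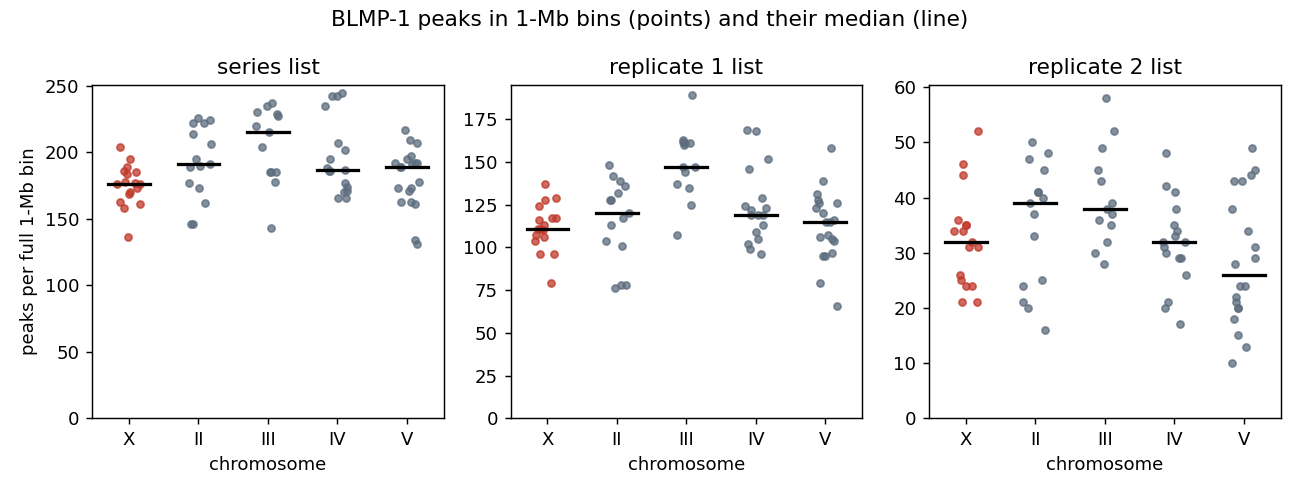
Number of BLMP-1 peaks in each full 1-Mb bin (points) of X and chromosomes II to V, with 1 panel for each peak list and a line at the median. In the series panel the 17 X bins run from 136 to 204, a narrower band than on the other chromosomes.

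The fullest bins of X differed between lists. In the series list the highest was X 2000001 to 3000000 with 204 peaks, followed by X 8000001 to 9000000 with 195. Replicate 1 had most peaks, 137, at X 13000001 to 14000000, and replicate 2 had most, 52, at X 5000001 to 6000000. The lowest bin of the series list and of replicate 1 was X 15000001 to 16000000, with 136 and 79 peaks. That bin also holds the widest X region and 18 of the 313 strongest X series peaks (the strongest 10%), so it was sparse in peaks but not in strong ones. Strong peaks were most frequent at X 2000001 to 3000000, with 28, and X 5000001 to 6000000, with 27, and least frequent, apart from the last incomplete bin, at 11 in each of the bins starting at 1, 1000001 and 7000001. Across the 17 bins the counts of replicates 1 and 2 had a Spearman's rho of 0.659, given as a description of bins that share chromosome and list. The same value was 0.835 on II and -0.0381 on IV.

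X showed little difference between its middle and its ends. Cut into 3 stretches of equal length, X held 182, 180 and 169 series peaks per Mb from left to right. The ratio of the middle to the outer stretches was 1.03 on X, and 0.968 to 1.19 on II to V (exact permutation p 0.8 over 5 chromosomes). In replicate 2 the X ratio was 1.05 and lay below the 1.14 to 1.66 of II to V, so in that list X stood out as flat. Strong peaks were spread evenly too, at 108, 106 and 99 from left to right. The median width was 165.5 bp on the left, 156 bp in the middle and 148.5 bp on the right.

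The first 300 kb of X held the 3 emptiest 100-kb windows of the series list on this chromosome, while the emptiest window of replicate 1, with 1 peak, was X 15900001 to 16000000. Together the first 300 kb held 9 series peaks, 10 replicate 1 peaks and 2 replicate 2 peaks, against 34 to 76, 29 to 45 and 7 to 15 in the first 300 kb of II to V. The last 300 kb of X held 74 series peaks, within the 54 to 85 of the other chromosomes. The window was chosen after the values were seen, and no test is given. The 3 longest gaps of the series list were X 54721 to 141534 (86814 bp), X 147625 to 223967 (76343 bp) and X 1712493 to 1785373 (72881 bp). The longest gap of replicate 1 was nearly the same as the first of these, X 54722 to 141530. Replicate 2 had no peak from X 13135 to 293242, a gap of 280108 bp. Peaks of replicate 1 that shared at least 1 bp with the second gap numbered 3, any that reached in over its edges included. By the same count the first gap met 2 and the third 1. At the third, the gap of replicate 1 itself ran from X 1712579 to 1785373.

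No full 100-kb window of X was without a peak in the series list or in replicate 1. Replicate 2 had no peak in 13 of 177 windows (7.34%), against 3.65% to 13.0% of windows on II to V. The median X window held 18 series peaks and the densest held 30, a maximum below the 36 to 44 of II to V. Counts of 30 were reached at X 900001 to 1000000, X 5800001 to 5900000 and X 13100001 to 13200000. Replicate 1 had 16, 19 and 21 peaks in these windows, and replicate 2 had 2, 12 and 8. The window at 13100001 was the densest of X in replicate 1 and the one at 5800001 shared the highest count of replicate 2 with X 11000001 to 11100000, so the first of the 3 had the weakest backing from replicate 2. The first 3 windows of the chromosome held 2, 3 and 4 series peaks.

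Fewer X peaks had a close neighbour than on II, III or IV, and X was near V. The median gap between series peaks was 3097 bp on X, 3094 bp on V and 2681 to 2992 bp on II, III and IV. Of X series peaks, 35.2% had another peak no more than 1000 bp away, against 35.6% to 41.1% on II to V (exact permutation p 0.4 over 5 chromosomes). X was also lowest in replicate 1, at 24.5% against 25.3% to 31.9%, and in replicate 2, at 13.8% against 14.2% to 16.8%. Chromosome V was close to X in each list. X lay within the range of II to V for a neighbour within 5000 bp, at 86.3% against 85.9% to 89.7%, and, among the stronger 50% of series peaks, for one within 1000 bp, at 24.5% against 21.7% to 29.2%. The smallest gap on X was 202 bp in the series list, 206 bp in replicate 1 and 222 bp in replicate 2. On II to V it was much alike, at 201 to 204 bp, 203 to 204 bp and 204 to 208 bp in the same order.

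Chains of X peaks with gaps of at most 1000 bp were short. Of 2505 such chains, single peaks included, 2029 were single peaks, 369 had 2 peaks, 80 had 3 and 27 had 4 or more. No chain of the series list on X exceeded 6 peaks, while the longest on II to V held 8 to 10. In the share of series peaks that lay in chains of 3 or more, X was like V, at 11.6% on both. The share was 13.4% to 16.1% on II, III and IV. Per Mb, X had 6.04 such chains, V 5.79 and the other 3 chromosomes 7.84 to 8.77. The 4 chains of 6 peaks were X 9401706 to 9405674, X 11033526 to 11037325, X 13004496 to 13009962 and X 13141404 to 13146623. Each was also hit by peaks of both replicates, 2 to 4 of replicate 1 and 1 to 3 of replicate 2. The longest chain of replicate 2 on X held 4 peaks, at X 15273780 to 15278186, and took in the second strongest X series peak.

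The strongest X peak of the series list was a region of 13351 bp, X 15724964 to 15738314, with a score of 0. Replicate 1 listed it as 1 peak of 13323 bp that also had a score of 0, and replicate 2 had no peak there, its nearest lying 14997 bp away. The next widest X series peak measured 1825 bp, so no other came near this width. Input lists were not analysed here.

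The other 9 of the 10 strongest X peaks were 736 to 1825 bp wide, all above the 90th percentile of X series widths (430 bp), and 8 of them were met by both replicates. The second strongest, X 15274592 to 15275809 (1218 bp), had a series score of 8.22e-170, a replicate 1 score of 1.72e-117 and a replicate 2 score of 6.79e-83, where it was the strongest X peak. X 15309901 to 15310636 (736 bp) had 5.73e-132, 5.28e-96 and 9.9e-53 in the same order. X 3837101 to 3838270 (1170 bp) had 7.64e-121, 7.27e-75 and 6.25e-49. These 3 peaks ranked 9, 11 and 12 in the whole series list, and 5, 10 and 11 in the whole list of replicate 2.

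X 17479231 to 17480618 (1388 bp) had a series score of 2.16e-119, with 2.32e-82 in replicate 1 and 4.86e-43 in replicate 2. X 4808889 to 4810199 (1311 bp) had 1.11e-111, 8.88e-75 and 2.27e-47. X 11064438 to 11065226 (789 bp) had 3.61e-96, 1.24e-71 and 3.56e-33. All of these were strong in both replicates, ranking 22 or better in the whole list of replicate 2.

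The remaining strong positions were less uniform. X 15276490 to 15278314 (1825 bp), in the same replicate 2 chain as the second strongest peak, had a series score of 4.09e-113 and was 1 peak of 1839 bp in replicate 1 but 2 peaks in replicate 2, which covered 72.4% of it. X 11605522 to 11606575 (1054 bp, 1.09e-75) was likewise met by 2 replicate 2 peaks, the better of which ranked 91 in that list. X 7776540 to 7777495 (956 bp) had 1.29e-118 in the series list and 7e-124 in replicate 1, where it ranked 10 of all peaks, and its nearest replicate 2 peak lay 16052 bp away. Thus 8 of the 10 strongest X series peaks were met by both replicates and the other 2 by replicate 1 alone.

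After the widest region, the widest X series peaks were also strong. X 13008244 to 13009962 (1719 bp, score 2.3e-69) closed one of the chains of 6 and measured 1712 bp in the first replicate and 1528 bp in the second. X 5098336 to 5099934 (1599 bp) had a score of 7.16e-45, and replicate 2 covered 61.1% of it. X 6514611 to 6516104 (1494 bp) had a score of 1.84e-51 and was split into 2 peaks in replicate 1. Peaks of 1000 bp or more made up 0.895% of X series peaks (28 peaks), against 0.561% to 0.815% on II to V.

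Strong peaks as a class were somewhat more frequent on X than on II to V together. Of the strongest 10% of series peaks over these 5 chromosomes, 350 lay on X, or 11.2% of X peaks (exact 95% interval 10.1% to 12.3%), against 9.72% of the peaks on II to V (two-sided Fisher's exact p 0.0154, adjusted p 0.0185). Chromosome III had a higher share, 12.9%, and IV and V had 8.20% and 8.07%, so X lay within the range of the chromosomes (exact permutation p 0.8). The difference did not pass the threshold without IV (Fisher's exact p 0.123) or without V (p 0.255), nor in the replicate 2 list alone (2.17 points, p 0.137), and in the strongest 25% it turned, at 24.2% on X against 25.2% on II to V (p 0.25). Scores under 1e-10 were found for 282 X series peaks (9.01%), against 6.01% to 10.2% on II to V.

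The next comparison asked whether the replicates overlapped more on X than on II to V. Overlap meant at least 1 shared bp. Over all chromosomes, 51.5% of replicate 2 peaks overlapped a replicate 1 peak and 13.8% of replicate 1 peaks overlapped a replicate 2 peak. On X, 320 of 571 replicate 2 peaks were found in replicate 1, or 56.0% (exact interval 51.9% to 60.2%). The share was 54.3% on III, 50.6% on II, 46.6% on IV and 42.3% on V. Together II to V had 48.3%, 7.70 percentage points below X (two-sided Fisher's exact p 0.00103, adjusted p 0.00197). Peaks of 1 library are not replicates of a chromosome, and X exceeded III by less than the width of either interval. The exact permutation p over 5 chromosomes was 0.4.

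In the other direction, 318 of 1983 X peaks of replicate 1 were found in replicate 2, or 16.0% (exact interval 14.4% to 17.7%). The shares of II to V were 15.2%, 14.8%, 12.0% and 10.6% in that order, and together 13.0% (two-sided Fisher's exact p 4e-04, adjusted p 0.0012, exact permutation p over 5 chromosomes 0.4). X was thus the highest of 5 in both directions at this overlap, closely followed by II or III. With replicate 1 cut to its strongest peaks so that both lists were equally long, X lay below the highest of II to V in the first direction, at 43.1% against 43.9%. Counting peaks as shared where their midpoints lay within 200 bp left X below III in the first direction, at 48.2% against 50.4%, and its difference from II to V together did not pass (4.28 points, Fisher's exact p 0.0731).

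**Figure D3:**
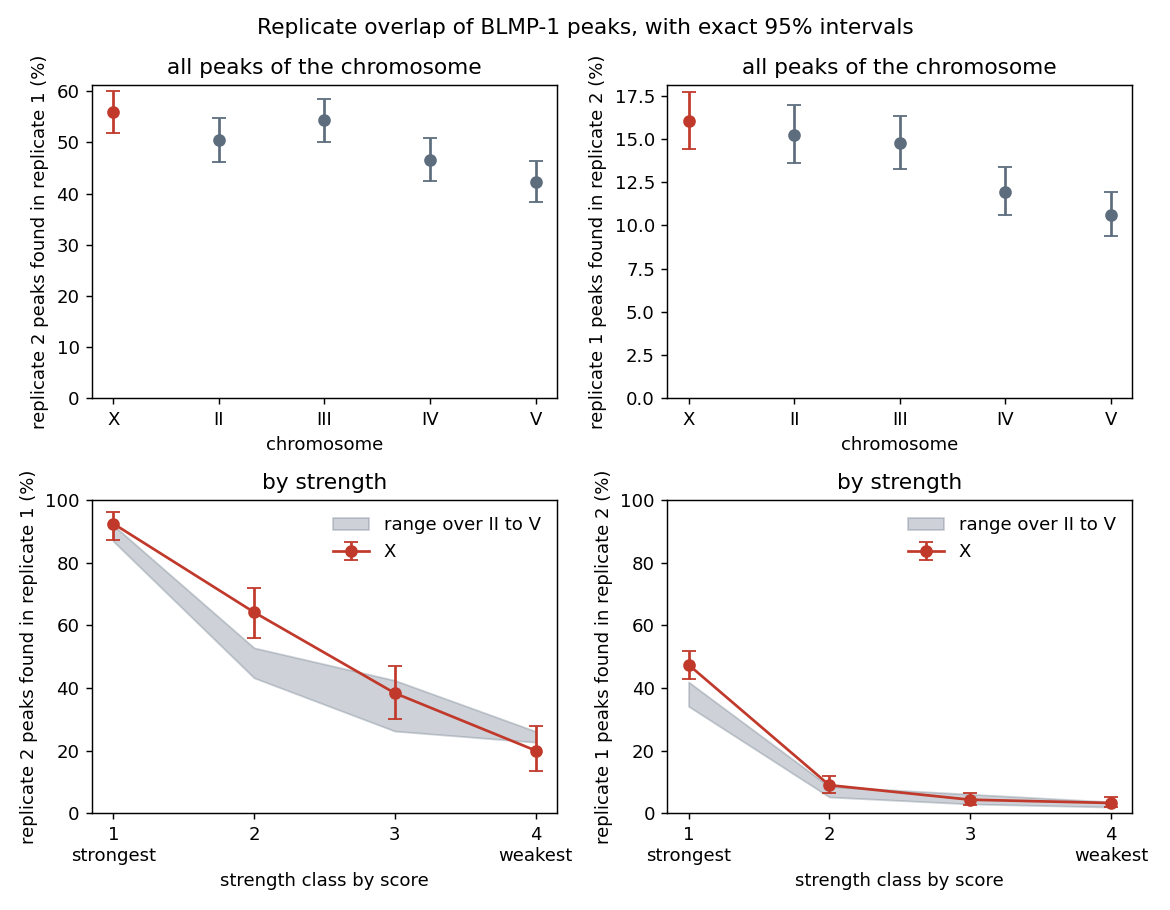
Share of replicate 2 peaks found in replicate 1 (left) and of replicate 1 peaks found in replicate 2 (right), in percent, by chromosome (top) and by strength class (bottom); bars are exact 95% intervals and the grey band in the bottom panels is the range over II to V. X is highest in the top panels (56.0% and 16.0%) and lies above the band in classes 1 and 2.

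X lay above the range of II to V in strength classes 1 and 2 and not in the weaker classes. In strength class 1 of replicate 2, replicate 1 had a counterpart for 148 of 160 X peaks (92.5%, exact interval 87.3% to 96.1%), against 86.9% to 92.0% on II to V. In class 2 it was 64.2% (55.9% to 71.9%) against 43.2% to 52.8%. In class 3 X had 38.3%, within the range of 26.2% to 42.4% and above the 34.1% of II to V together. In class 4, the weakest, X was lowest, at 20.0% against 22.7% to 26.1%. In replicate 1 class 1 gave 47.4% on X (43.0% to 51.9%) against 34.1% to 41.9%, class 2 gave 8.95% against 5.16% to 8.50%, and in classes 3 and 4 X lay within the range of II to V.

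Grouped into 4 width classes of equal size per replicate instead, X was highest in 1 of 8 classes. In the widest class of replicate 1, 41.9% of X peaks were found in replicate 2, inside the range of 33.1% to 48.4% on II to V. In the widest class of replicate 2 the share was 73.7% on X, inside the range of 55.6% to 76.4%. In the narrowest class of replicate 2 X was lowest, at 19.1% against 27.8% to 35.1%. Against II to V together, X was higher in all but the narrowest class of replicate 2. From narrowest to widest, the X shares were 19.1%, 59.7%, 60.1% and 73.7%. Those of II to V together were 29.8%, 47.6%, 52.9% and 65.2%. In replicate 1 the X shares were 2.10%, 2.71%, 9.25% and 41.9% in the same order. There II to V together had 1.89%, 4.23%, 8.34% and 39.15%. The part of width in the higher overlap on X was not tested beyond these values.

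Peaks of X found in both replicates were stronger and wider than the rest. In replicate 1 the shared X peaks had a median width of 374 bp and a median score of 1.57e-08, against 156 bp and 0.000235 for the others. In replicate 2 the values were 381.5 bp and 6.82e-06 against 256 bp and 0.000409. Of the 50 strongest X peaks, 48 of replicate 1 (96.0%, exact interval 86.3% to 99.5%) and 50 of replicate 2 (100.0%, 92.9% to 100.0%) were found in the other replicate. Of the 100 strongest, the counts were 94 and 97. These values were taken on X alone. In strength class 1 of replicate 2, the share found in replicate 1 was also high on II to V, at 86.9% to 92.0%.

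Matched X peaks lay close together, and their scores rose and fell together in part. The midpoints of 320 pairs were 75 bp apart at the median, compared with 64.25 to 66.5 bp on II to V. The median width over the pairs was 379 bp in replicate 1 and 381.5 bp in replicate 2, which does not compare widths within a pair. Scores had a Spearman's rho of 0.584 across the pairs and widths 0.464, as a description of pairs from the same libraries. On II to V the rho of scores was 0.536 to 0.647. In 39 pairs the peak was among the 50 strongest X peaks of both replicates, and in 63 among the 100 strongest of both.

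**Figure D4:**
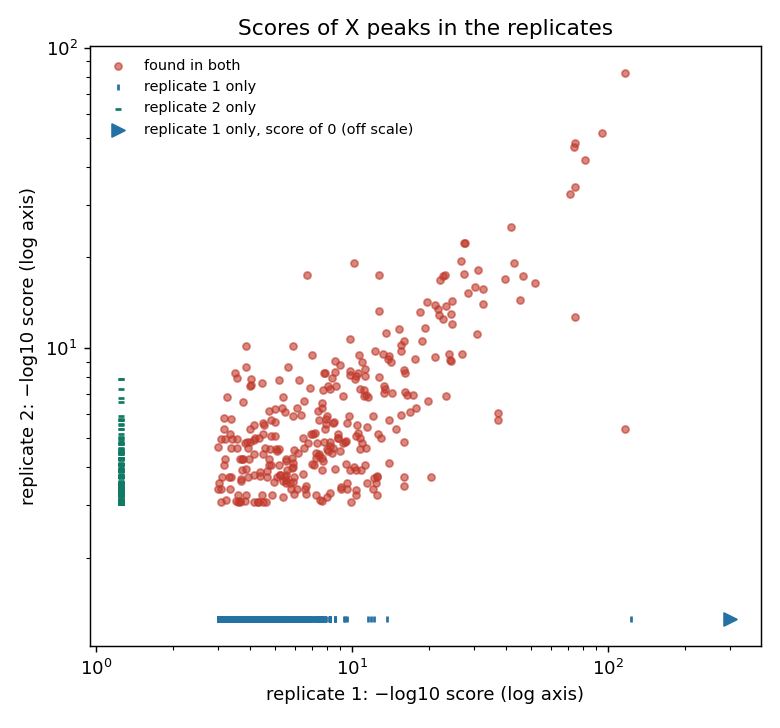
Scores of X peaks as −log10 values on log axes, replicate 1 across and replicate 2 upwards; red points are the 320 pairs, ticks along the edges are peaks found in 1 replicate, and the triangle marks the region with a score of 0, placed off scale. Most strong peaks lie along a common trend, with exceptions in both directions. Some are red points where a further, weaker replicate 2 peak meets a strong replicate 1 peak (4 replicate 1 peaks met 2 or more). Others are single pairs of unlike strength. One such pair ranked 44 among X peaks in replicate 1 and 344 in replicate 2, and another ranked 249 and 17. In addition, 2 very strong positions of replicate 1 lack a replicate 2 peak.

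Strong X peaks lacking in the other replicate were few. In replicate 1 the 2 strongest without a replicate 2 peak were the widest region and X 7776535 to 7777483, already described. The next, X 16529898 to 16530253 (356 bp, score 2.11e-14), ranked 72 among X peaks and had a replicate 2 peak 728 bp away. X 9296619 to 9297006 and X 14063792 to 14064407 followed, with 6.93e-13 and 1.38e-12. In replicate 2 the strongest peak without a counterpart was X 5270836 to 5271499 (664 bp, 1.28e-08), which ranked 85 among X peaks and lay 343 bp from a replicate 1 peak. X 2688605 to 2688983, X 9225826 to 9226545, X 5847689 to 5848024 and X 12160366 to 12160860 came next, with scores from 1.31e-08 to 2.56e-07. The series list had a peak at each of these 10 positions.

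The series list was then set against both replicates. Over all chromosomes, 9.09% of series peaks overlapped peaks of both replicates and 49% overlapped neither. On X, 334 of 3130 were found in both (10.7%, exact interval 9.61% to 11.8%), against 8.78% of the peaks on II to V (two-sided Fisher's exact p 0.00131, adjusted p 0.00197). X lay below III, at 11.0%, and above II, IV and V, at 9.61%, 8.03% and 7.12% (exact permutation p 0.6 over 5 chromosomes). Without V the difference did not pass the threshold (1.20 points, Fisher's exact p 0.0511). Found in neither were 1503 X peaks (48.0%, interval 46.3% to 49.8%), against 48.0% on II to V (Fisher's exact p 1, adjusted p 1).

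Support on X rose with strength. Among the 100 strongest X series peaks, 98 were met by both replicates and 100 by replicate 1. Among the strongest 313, 261 were met by both and 0 by neither. Among the strongest 1000, 332 were met by both, 802 by replicate 1 and 109 by neither. X peaks met by both had a median width of 488 bp and a median score of 8.97e-14, while those met by neither had 104 bp and 0.000235. Of the latter, 0 had a score under 1e-10, against 246 of the 334 met by both (73.7%). II to V showed a like contrast, with medians of 425 bp and 1.9e-13 for peaks met by both. Those met by neither had 96 bp and 0.000203 there. Scores under 1e-10 on II to V were found for 783 of 1143 peaks met by both (68.5%) and 4 of 6251 met by neither. The counts among the strongest peaks were made on X alone.

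Some replicate peaks on X had no series peak. The strongest in replicate 1 was X 2115915 to 2116203 (289 bp, score 5.28e-07), which ranked 276 among 1983 X peaks and lay 164 bp from a series peak. The strongest in replicate 2 was X 4210984 to 4211599 (616 bp, 1.6e-05), ranking 213 among 571.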

How the data were processed

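Analysis began from 3 deposited GFF3 peak lists of BLMP-1 ChIP-seq. Per the file headers and source column, the authors called peaks with PeakSeq on WormBase WS220; the version, aligner, threshold, use of inputs and any pooling for the series list are not given in these sources. Per the labels' protocols, worms were fixed with 2% formaldehyde. The deposited score is unnamed and was read as a q-value. Numbering shows 428 series and 148 replicate 1 peak numbers not analysed here, whose chromosomes are unknown, so densities are of listed peaks. Whether replicates were separate cultures is not in the labels, so differences between lists may be technical. The replicate lists shared 0 identical intervals.

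Chromosome length was the last peak end over the lists. Bins, windows and stretches were assigned by peak midpoint. Densities were compared by exact binomial test, shares by Fisher's exact test, and chromosomes as units by exact permutation, all two-sided. Intervals are Clopper-Pearson and cover counting error only; read depth is unknown. Peaks were named by strength, width, gap or window rank. Members and lists were chosen with earlier results of these data known. Alternatives were stricter overlap, stronger peaks, single replicates and leaving out chromosomes. Scripts were tested on simulated data, and overlaps were checked with bedtools 2.31.1. Software was scipy 1.17.1, statsmodels 0.14.6, pandas 2.3.3, numpy 2.4.6 and matplotlib 3.10.9 under Python 3.11.15. No sequence is shown, as no WS220 genome was used here.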

Additional observations from a re-analysis of the deposited data

How the results depend on the processing

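Of 86 alternative values for 10 comparisons of X with II to V, 67 were counted as unchanged. This meant the same direction and the same call, or, where no test could pass, a move of less than 1 SD over II to V. Where neither value was called, a change of direction also counted as unchanged. That was so for series peaks found in neither replicate. Their difference was -0.0174 points, and 0.683 without II, 0.337 without IV and 0.285 without V. X had the widest median peak in all 9 alternatives of that value, and the highest share of replicate 1 peaks found in replicate 2 in all 9 of that one. X was already first in both main values, so the alternatives that leave out a chromosome could not change these ranks. In single replicates the density ratio was 0.899 to 0.971, the covered ratio 1.05 to 1.10, the width difference 18.25 to 46.4 bp, the strong-peak difference 1.91 to 2.17 points, the neighbour difference -3.23 to -2.21 points and the middle-to-outer difference -0.324 to -0.103. The density ratio was 0.990 against all 5 autosomes and 0.947 among as many strongest peaks as replicate 2 has. The share of replicate 2 peaks found in replicate 1 differed by 4.28 points with midpoints within 200 bp and by 3.84 in the stronger 25% of replicate 2. Series peaks found in both differed by 1.20 points without V. Strong peaks differed by 0.971 points without IV, 0.719 without V, 0.380 in the strongest 1% and -1.01 in the strongest 25%. The width difference was 43.4 bp in the stronger 50% and 51.9 bp in the stronger 25%, where peaks are wider. A neighbour within 500 bp gave -0.976 points, and the middle-to-outer difference was -0.169 in the stronger 50%. For these the cause was not tested. Chosen after seeing the data were all 5 autosomes, the stronger 25% for width and for replicate overlap, the list of replicate 2's length, peaks of at least 50 bp for width, the score multiplied by peak number and leaving out the widest X peak. No paired analysis was possible because the comparisons are between chromosomes within a list, and peak lists of the inputs were not used. Read depth is unknown, and its part in the shorter replicate 2 list was not tested.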
